A study of Populus trichocarpa with 45 samples.

Results

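Branch 13.1 is 1 of 5 branches of a wild black cottonwood (Populus trichocarpa), sampled as tree 13. Its 3 leaf libraries, of 45 in the series, were set against the 12 libraries of the other branches of tree 13, which are 13.2, 13.3, 13.4 and 13.5, at 3 libraries each. A gene was counted as set apart in 13.1 where it differed in the same direction from every one of those 4 branches. Of 34700 genes in the files 23796 were expressed highly enough to test, and 107 of them were set apart. Of these, 94 were higher and 13 were lower in 13.1.

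The libraries of trees 13, 14 and 4, at 5 branches each, come from leaf tissue of untreated trees in Oregon. By the study's account trees 13 and 14 are stems of a single individual that was once decapitated, and tree 4 is another tree, while the labels speak of 1 wild tree for all samples. Among the branches that the study draws, 13.1 is the uppermost of its stem and 14.2 the uppermost of the other stem. It left 13.4 and 14.1 undrawn because their damage prevented an age estimate, although its text also counts 14.1, with 13.1, among the youngest. The 3 libraries per branch are named biological replicates in one place of its text and technical replicates in another, so errors and p-values here cover the spread between libraries, which may be technical, and each branch is a single branch of a single tree.

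As background, each branch of a tree grows from its own shoot meristem, so leaves of different branches share an inherited genome apart from mutations that arose after their meristems parted. Leaves on different branches also meet different light, water supply, insects and pathogens. Leaf transcript levels are known to respond to all of these, and to leaf age and time of day.

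Sequencing depth, recovered from the FPKM steps, was 20280000 to 24680000 fragments in the 3 libraries of 13.1, against 18880000 to 25840000 in the other 12 of tree 13 and 11870000 to 35940000 in all 45. Between 28515 and 28946 genes were above 0 in the libraries of 13.1. At this depth 1 TPM (a transcript's length-corrected share of a library) in a transcript of 1 kb stood for 14.8 to 19.6 fragments in tree 13, so levels far below 1 TPM rest on a few fragments. A group of 198 genes that varied together between libraries of the same branch took 3.86 to 11.7% of all TPM in 13.1, against 1.03 to 19.8% in the other 12 libraries, and none of the 107 genes belonged to it. None of the 34700 identifiers matched a named gene in the RefSeq table used here, so genes are given by identifier and position in the authors' Stettler genome. For the same reason the leaf label was not checked against marker genes, and no pathway list was applied.

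Levels below are scaled TPM, the deposited TPM divided by a median-of-ratios factor for each library. Differences are in log2(scaled TPM + 1), a scale that understates the change of weakly expressed genes. A difference passed where its absolute value was at least 1 and limma's adjusted p did not exceed 0.01. The 94 genes higher in 13.1 are 0.395% of the genes tested, and the 13 lower ones are 0.0546%. Because the branch and the genes were chosen from this contrast, its values are a description and carry no test. Against single branches, 140 genes were higher and 17 lower in 13.1 than in 13.2 (0.588% and 0.0714% of tested genes), and 170 were higher and 108 lower than in 13.3 (0.714% and 0.454%). Another 193 were higher and 86 lower than in 13.4 (0.811% and 0.361%), and 216 were higher and 70 lower than in 13.5 (0.908% and 0.294%). Against the mean of the 4 branches, 178 genes were higher (0.748%) and 47 lower (0.198%). Branch 13.2 limited the lower genes most, with 45 passing when it was left out of the 4.

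The threshold cut through a continuous range. The higher gene nearest to it on the inside, PtStettler14.06G063400, had 1.08, 2.38 and 1.798 scaled TPM in 13.1, against values between 0 and 0.608 (median 0.303) in the other 12 libraries, and its smallest log2 difference from any branch was 1.02. The next, PtStettler14.01G089400, had a smallest difference of 1.03. Just outside lay PtStettler14.02G064700, whose smallest difference was 0.99, and PtStettler14.06G081100, at -0.98 on the lower side. The same rule applied to the other branches of tree 13 set apart no gene in 13.2, 13.3 or 13.4, and 1 higher and 1 lower gene in 13.5. In tree 14 it set apart 1 gene, higher in 14.5. In tree 4 the largest count was 9 genes in 4.1, of which 4 were higher and 5 lower. Over all tested genes, 1 minus Pearson's r between branch means was 0.00953 from 13.1 to 13.2 and 0.0151 to 0.0159 from 13.1 to the other 3, against 0.00443 to 0.00768 among the 4 other branches.

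**Figure D1:**
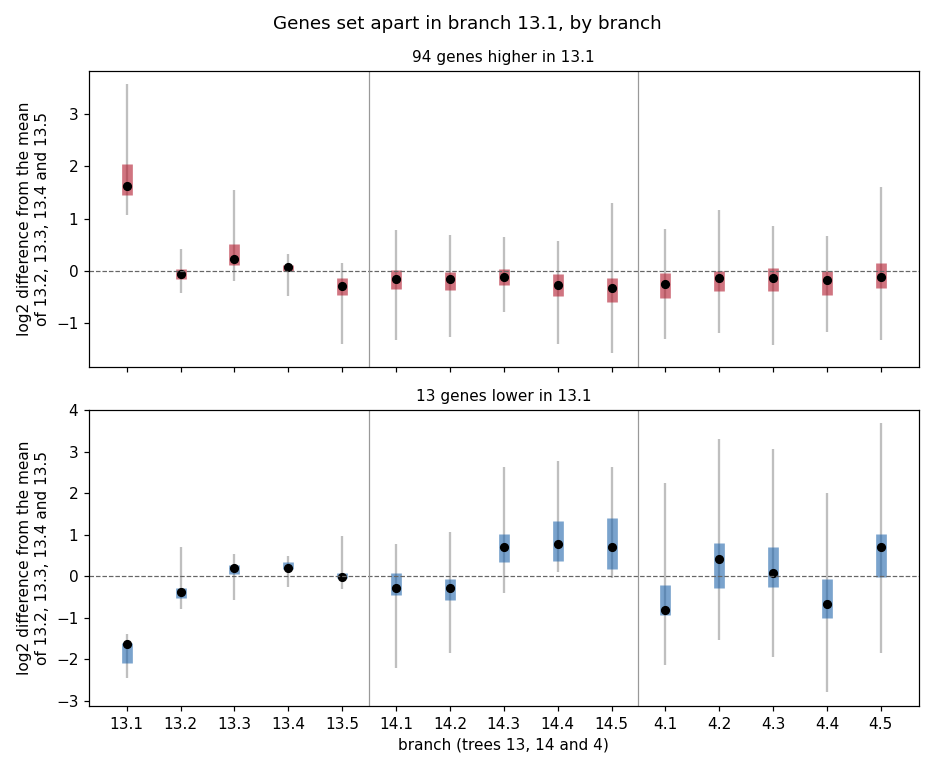
Log2 difference of each branch mean from the mean of 13.2, 13.3, 13.4 and 13.5 (vertical axis) for the 15 branches (horizontal axis), with the 94 higher genes above and the 13 lower genes below; black points are medians over genes, coloured bars the middle of the genes from the first to the third quartile, and grey lines their full range. The median of the higher genes was 1.62 in 13.1 and between -0.33 and 0.23 in all other branches, whereas the lower genes ranged widely across trees 14 and 4.

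The higher genes were mostly weakly expressed elsewhere. Their summed level was 1389 to 1842 scaled TPM in the libraries of 13.1 (median 1494), against 273 to 575 in the other libraries of tree 13 (median 381). It was 264 to 389 in tree 14 and 296 to 380 in tree 4. The libraries of 13.1 therefore lay above all 42 others in this sum. In bulk leaf tissue, more RNA per cell and more cells of a type cannot be told apart. The log2 difference from the mean of the other 4 branches ran from 1.06 to 3.58 with a median of 1.62. In 93 of the 94 genes the 3 libraries of 13.1 did not overlap the other 12 of tree 13, against 4.9% of all tested genes that lay above in this way. The exception, PtStettler14.18G006600, named here after its values were seen, had 10.1, 17.4 and 17.8 scaled TPM in 13.1 and reached 10.4 in a library of 13.4. In 90 of the genes the libraries of 13.1 also lay above all 42 libraries of the other 14 branches, as in 2.101% of all tested genes.

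The widest separation belonged to PtStettler14.08G122000 (chr8:8887095-8888751, minus strand). It had 7.17, 7.76 and 5.99 scaled TPM in 13.1, whereas the 12 other libraries of tree 13 lay between 0 and 0.2995 (median 0). All 30 libraries of trees 14 and 4 were at or below 0.129. Its RNA was thus near the limit of detection in every branch but 13.1, and the log2 difference was 2.90 (SE 0.068). PtStettler14.01G099900 (chr1:8966456-8967733, plus strand) had the same form at a lower level, with 3.68, 4.56 and 3.32 scaled TPM in 13.1 and values between 0 and 0.409 (median 0.0819) in the other 12. Its neighbour PtStettler14.01G100000, on the opposite strand, had 3.17, 4.601 and 2.96 in 13.1 and at most 0.467 in the other 12. PtStettler14.06G124700 and PtStettler14.04G122600 were also low in all other libraries of tree 13. PtStettler14.06G124700 (chr6:11796227-11797186) had 6.67, 5.45 and 4.74 in 13.1, against values between 0 and 1.44 (median 0.278). PtStettler14.04G122600 (chr4:15931625-15932739) had 5.98, 6.79 and 3.92 in 13.1, against values between 0 and 0.894 (median 0.143). In all, 25 of the 94 genes averaged under 1 scaled TPM in the other 4 branches, as did 6.95% of all tested genes, while all 94 reached at least 1 in every library of 13.1. For 14 of them fewer than 3 libraries outside 13.1 reached 1, so they entered the test through 13.1.

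Other genes had RNA in every library of tree 13 and still separated. PtStettler14.02G001400 (chr2:98728-99760, plus strand) had the largest difference, 3.58 (SE 0.17). It had 38.2, 58.5 and 37.7 scaled TPM in 13.1, against branch means of 1.89 in 13.2, 10.2 in 13.3, 3.64 in 13.4 and 0.425 in 13.5. The 4 other branches thus differed widely among themselves, and 13.3 came nearest to 13.1. PtStettler14.18G077500 (chr18:11628370-11629765) differed less between them. Its values were 16.4, 22.4 and 14.98 in 13.1 and between 1.26 and 3.25 (median 1.898) in the other 12, a log2 difference of 2.66 (SE 0.13). PtStettler14.06G013700 (chr6:1114473-1118685, minus strand) was the tightest, with 19.6, 27.2 and 18.4 in 13.1 and all 12 others between 3.56 and 4.99 (median 4.05). PtStettler14.03G165400 (chr3:20197530-20199992) gave 22.4, 28.5 and 20.01 in 13.1 and values between 2.88 and 5.68 (median 4.903) in the others. These genes are shown by library in the plot of the most separated genes.

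PtStettler14.12G110300 and PtStettler14.12G110100 lie close to each other on chromosome 12, at chr12:14171668-14172993 and chr12:14159410-14161297, both on the plus strand. PtStettler14.12G110300 had 19.6, 18.5 and 13.5 scaled TPM in 13.1, against values between 0.256 and 2.82 (median 1.11) in the other 12 libraries. PtStettler14.12G110100 had 11.7, 13.1 and 10.1 in 13.1, against values between 0.161 and 2.43 (median 0.485). In both, 13.3 was the highest and 13.5 the lowest of the other 4 branches. The most abundant higher gene was PtStettler14.12G035800 (chr12:3814137-3820403, plus strand), at 88.3 ± 6.23 in 13.1 (SD, n = 3 libraries), against 30.05 ± 8.17 in the others (SD, n = 4 branch means). PtStettler14.16G026800 had 53.5, 67.9 and 54.3 scaled TPM in 13.1 and values between 14.5 and 26.9 (median 19.9) in the others. PtStettler14.18G085900 had 49.7, 60.6 and 56.03 in 13.1 and values between 19.4 and 28.2 (median 24.6) in the others. These 3 differed by less than 3-fold and were unusually abundant, since the median over the higher genes was 10.01 scaled TPM in 13.1 and 1.91 in the other 4 branches.

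**Figure D2:**
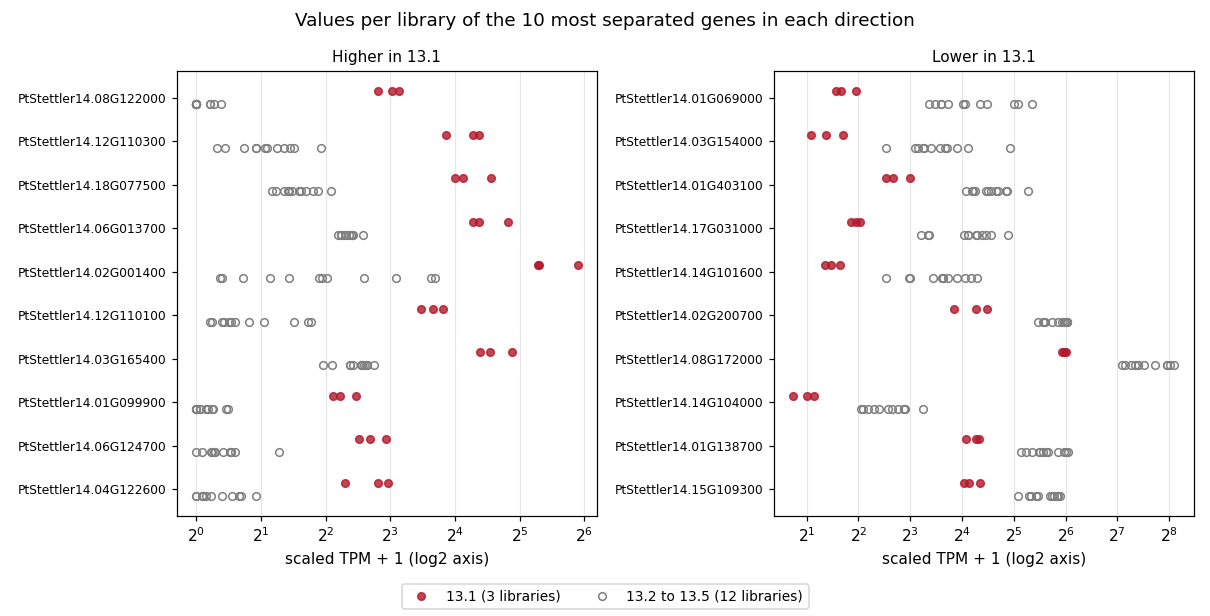
Scaled TPM + 1 per library, on a log2 axis, of the 10 higher (left) and 10 lower (right) genes with the largest smallest difference from the 4 other branches; filled points are the 3 libraries of 13.1, above the open points for the 12 libraries of 13.2 to 13.5 in each row. The filled points lie apart from the open ones in every row, because the genes were chosen for that.

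Among the other branches, 13.3 was the highest of the 4 for 70 of the 94 genes (74.5%), against 30.1% of all tested genes, and 13.5 was the lowest for 77 (81.9%), against 24.4%. The median log2 difference from the 4-branch mean was 1.62 in 13.1, 0.23 in 13.3, 0.07 in 13.4, -0.07 in 13.2 and -0.29 in 13.5. Within 13.1 the libraries did not stand level either. Replicate 2 held the highest value for 79 of the 94 genes, whereas it was the highest for 31.8% of all tested genes, and its summed level of 1842 was above those of the other 2 libraries. Without it 84 genes were higher and 16 lower by the same rule.

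Some of the higher genes were neighbours on their chromosome. Of the 94 higher genes, 19 (20.2%) had another higher gene as their next annotated neighbour, against 108 (0.456%) of the 23689 tested genes that were not set apart. Plant genomes often carry such neighbours as copies of a single ancestral gene, and where copies are nearly identical, reads cannot be assigned to one of them with certainty. Without sequence for these genes this was not tested. The 19 genes formed 7 runs.

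The longest run held 6 genes, from PtStettler14.17G033900 to PtStettler14.17G034400, within 30.5 kb at chr17:3348119-3378573, all on the minus strand. The first 4 were alike in level. PtStettler14.17G033900 had 9.22, 11.4 and 6.59 scaled TPM in 13.1, against values between 0.46997 and 3.53 (median 1.23) in the other 12 libraries. PtStettler14.17G034000 had 8.06, 10.6 and 6.39 in 13.1, against values between 0.533 and 3.31 (median 1.32). PtStettler14.17G034100 had 10.5, 14.3 and 8.35 in 13.1, against values between 0.562 and 4.15 (median 1.57). PtStettler14.17G034200 repeated the pattern, with 7.69, 10.03 and 6.296 in 13.1 and values between 0.505 and 3.15 (median 1.28) in the others. In these 4 genes replicate 2 was the highest and replicate 3 the lowest library of 13.1, and 13.3 came nearest, with branch means of 3.13, 3.204, 4.03 and 3.06. PtStettler14.17G034300 was expressed at a higher level throughout, with 19.4, 28.4 and 19.04 in 13.1 and values between 6.16 and 10.2 (median 7.88) in the others. PtStettler14.17G034400 had 5.32, 7.01 and 4.33 in 13.1, against values between 0.768 and 2.07 (median 1.13). The 3 annotated genes on either side of the run were too low to test.

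A second group, on chromosome 5 and also on the minus strand, was described after its values were seen. PtStettler14.05G135400, PtStettler14.05G135500 and PtStettler14.05G135600 are consecutive, and PtStettler14.05G135200 and PtStettler14.05G135800 lie 1 gene away on either side. PtStettler14.05G135400 (chr5:15080799-15081994) had 65.8, 91.02 and 59.2 scaled TPM in 13.1, against branch means of 8.93 in 13.2, 32.2 in 13.3, 13.6 in 13.4 and 5.54 in 13.5. PtStettler14.05G135600 (chr5:15116827-15117937) was nearly the same, at 70.6, 92.7 and 59.6 in 13.1 and 10.4, 31.9, 13.96 and 6.31 in 13.2 to 13.5. PtStettler14.05G135500 and PtStettler14.05G135800 ran lower: 13.1 averaged 38.9 and 37.4, against 7.94 and 7.56 in the other 4 branches. PtStettler14.05G135700, between them, had 40.8, 53.98 and 33.98 in 13.1 and values between 0 and 20.3 in the others, and did not pass with an SE of 0.45. The flanking PtStettler14.05G135100 and PtStettler14.05G135900 had log2 differences of 0.15 (SE 0.073) and -0.08 (SE 0.078).

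**Figure D3:**
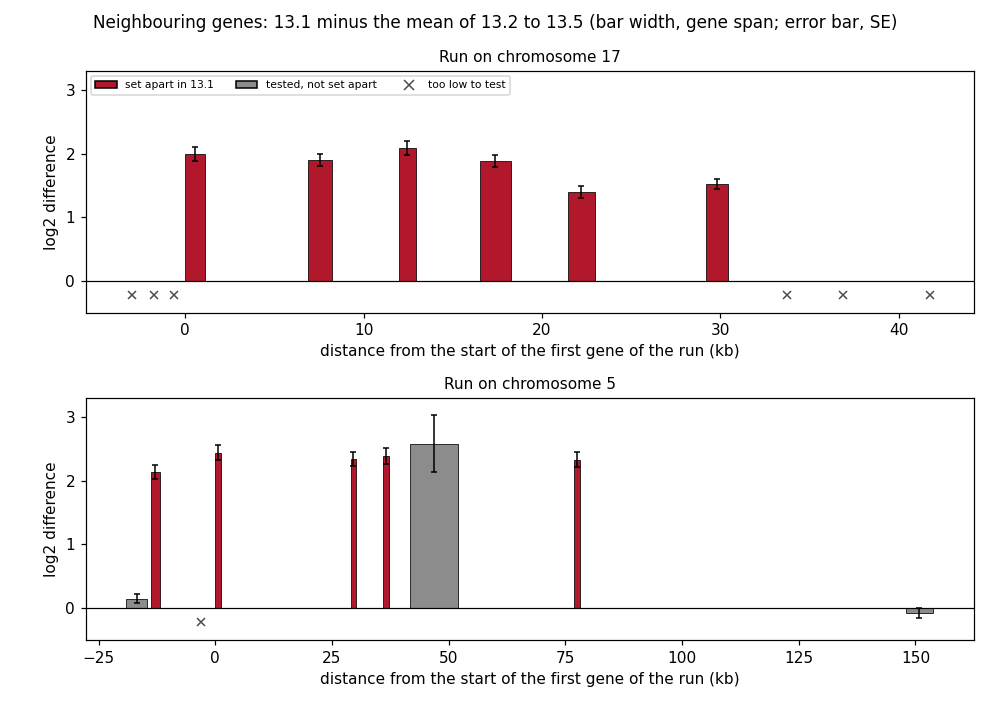
Log2 difference of 13.1 from the mean of 13.2 to 13.5 (vertical axis, with SE) for genes of the runs on chromosomes 17 (top) and 5 (bottom) against distance from the start of the first gene of the run in kb; bar width is gene span, red bars are genes set apart, grey bars tested genes that were not, and crosses genes too low to test. The 6 genes on chromosome 17 lie between 1.39 and 2.09, and on chromosome 5 the outer tested genes, at 0.15 and -0.08, flank genes at 2.13 to 2.58.

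Span and level were compared between the higher genes and all tested genes. The median span of the higher genes from annotated start to end was 1405 bp, against 3478 bp for all tested genes, and 66 of the 94 lay in the shortest quartile of tested genes. In level, 58 lay in the lowest quartile by mean in the other 4 branches and 2 in the highest. The lower genes differed in this respect: 0 of 13 lay in the lowest quartile of level and 7 in the highest, with a median span of 2149 bp. Span and level are linked, but within the lowest quartile of level the higher genes had a median span of 1361 bp, against 3192 bp for all tested genes, within the second quartile 1634 bp, against 4195 bp, and within the third 1184.5 bp, against 3801 bp. In the highest quartile the order was the other way, at 4457.5 bp for only 2 higher genes, against 2828 bp. Level enters the rule through the filter and the pseudocount, so its distribution here is a description. By chromosome, 17, 5 and 1 each held 10 higher genes (10.6% of the set), with 3.57%, 6.62% and 11.8% of tested genes, and 18 held 9 (9.57%, with 3.77%). These counts are not independent of the runs of neighbours. They include runs of 6 and 2 genes on chromosome 17, of 3 on chromosome 5 and of 2 on chromosome 1. Strand was even, with 48 on the plus and 46 on the minus strand.

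**Figure D4:**
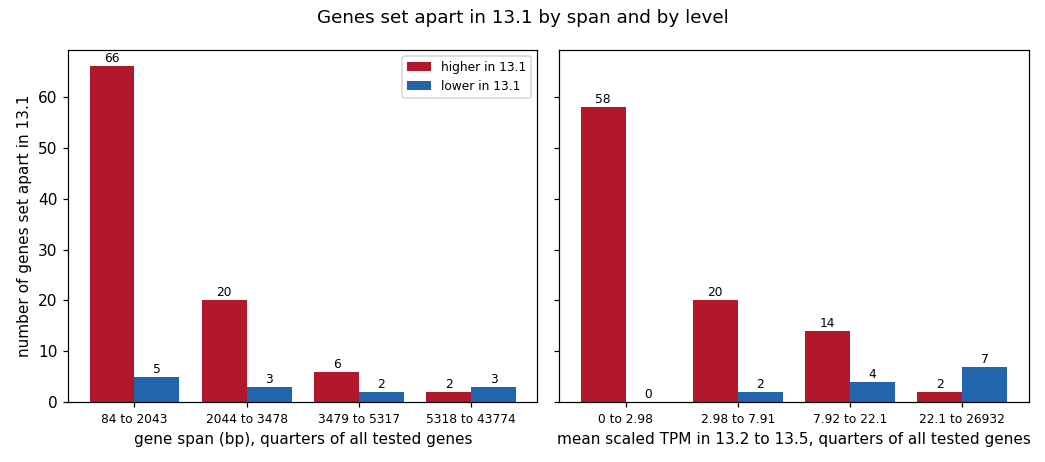
Number of genes set apart in 13.1 (vertical axis) by quartiles of all tested genes in span (left, bp) and in mean scaled TPM over 13.2 to 13.5 (right); red bars are higher and blue bars lower genes, with counts above. The higher genes number 66 in the shortest and 2 in the longest quartile, 58 in the weakest and 2 in the strongest, and the lower genes number 0 in the weakest and 7 in the strongest.

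The 13 lower genes had a summed level of 139 to 159 scaled TPM in the libraries of 13.1 (median 154), against 344 to 660 in the other libraries of tree 13 (median 510). All 13 had libraries of 13.1 below all 12 others of tree 13, as 4.57% of all tested genes did. Their log2 differences ran from -1.40 to -2.45 with a median of -1.62. Branch 13.2 was the lowest of the other 4 for 10 of the 13, against 27.4% of all tested genes.

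PtStettler14.01G069000 (chr1:6219039-6227175, minus strand) had the largest difference, -2.45 (SE 0.2). It had 2.15, 1.98 and 2.88 scaled TPM in 13.1, against branch means of 14.5 in 13.2, 12.7 in 13.3, 14.7 in 13.4 and 34.7 in 13.5, so 13.5 stood well above the other 3. PtStettler14.03G154000 (chr3:19315554-19325590, plus strand) had 1.59, 2.25 and 1.12 in 13.1, against values between 4.77 and 29.5 (median 10.2) in the other 12. PtStettler14.17G031000 (chr17:2968918-2973542) had 2.8995, 3.08 and 2.64 in 13.1, against values between 8.204 and 28.8 (median 17.4). Its 3 libraries of 13.1 lay close together, while 13.2, at 8.88, stood between 13.1 and the branches at 16.8 or more. PtStettler14.14G101600 (chr14:8174027-8174810) and PtStettler14.14G104000 (chr14:8335450-8336361) share a region of chromosome 14 without being neighbours. PtStettler14.14G101600 had 1.78, 2.11 and 1.55 in 13.1, against values between 4.79 and 18.7 (median 11.5). PtStettler14.14G104000 had 0.998, 1.196 and 0.665 in 13.1, against values between 3.15 and 8.501 (median 5.08). PtStettler14.01G403100 (chr1:50297368-50298428) had 4.77, 6.93 and 5.38 in 13.1, against values between 15.99 and 37.7 (median 22.1).

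The most abundant lower gene, PtStettler14.08G172000 (chr8:13159962-13162039, plus strand), was at 61.6 ± 1.61 in 13.1 (SD, n = 3 libraries), against 195 ± 49.2 in the others (SD, n = 4 branch means). PtStettler14.02G200700 (chr2:21120400-21123859) had 21.3, 18.4 and 13.4 scaled TPM in 13.1 and values between 43.4 and 64.6 (median 58.1) in the others. PtStettler14.01G138700 had 18.2, 19.1 and 15.8 in 13.1 and values between 34.4 and 65.2 (median 47.3) in the others, and PtStettler14.15G109300 had 16.7, 19.4 and 15.4 in 13.1 and values between 32.7 and 58.6 (median 51.7). In each of these 4 abundant genes the libraries of 13.1 lay below the lowest other library of tree 13 by a clear margin. The remaining 3, PtStettler14.01G204900, PtStettler14.06G202700 and PtStettler14.17G014600, averaged 6.66, 14.3 and 0.407 in 13.1, against 23.4, 47.01 and 3.1001 in the other 4 branches.

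No contrast within tree 14 or tree 4 was used to choose the genes, so differences there were tested. The comparisons themselves were chosen with earlier results of these data known, which their p-values do not allow for. The libraries of both trees did enter the scaling, the filter and the shared spread of the fit. With the 15 libraries of tree 13 alone 103 genes were set apart. The first such test set 14.2, the uppermost of the drawn branches of its stem, against the mean of 14.3, 14.4 and 14.5. Of the 13 lower genes 8 were called lower in 14.2 with those thresholds, and all 13 differences were below 0, with a median of -1.17. Over all tested genes, 0.0967% were called lower in 14.2 and 0.0925% higher, and the median was -0.01. Of the 94 higher genes none was called in 14.2 by limma, 20 had an unadjusted p under 0.05, of which 14 were higher and 6 lower, and their median difference was 0.06; an unadjusted p under 0.05 was found for 26.1% of all tested genes. The 14 higher genes that entered the test through 13.1 stayed at or below 0.716 scaled TPM in every library of tree 14, where a call was hardly possible. Among the other 80 none was called, the same 20 had an unadjusted p under 0.05 and the median was 0.07. Some of these 80 reached the level minimum only in tree 13 and were also too low in tree 14 for a call. Examples are PtStettler14.12G110100 and PtStettler14.05G118300, at no more than 0.46 and 0.62 scaled TPM there. How many were this low was not counted, so the absence of calls among the 80 was partly fixed beforehand. The count of 8 lower genes was 7 to 10 when single libraries of tree 14 were left out.

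PtStettler14.14G101600 had 24.3, 18.6 and 30.1 scaled TPM in 14.2, against 82.4, 68.6 and 69.03 in 14.3, 80.6, 86.5 and 76.5 in 14.4 and 71.995, 77.5 and 71.1 in 14.5, a log2 difference of -1.62 (SE 0.15, limma adjusted p = 2.98e-09). PtStettler14.17G014600, chosen after its values were seen, had 2.25, 2.23 and 4.07 in 14.2, against 9.52, 9.52 and 7.17 in 14.3, 14.9, 14.5 and 16.7 in 14.4 and 13.97, 12.5 and 13.3 in 14.5, a log2 difference of -1.80 (SE 0.13, limma adjusted p = 1.14e-11). No library of 14.2 overlapped those of the other 3 branches in either gene. PtStettler14.01G069000 had 5.71, 5.97 and 7.84 in 14.2, against branch means of 15.3, 22.9 and 31.6 in 14.3, 14.4 and 14.5, a log2 difference of -1.63 (SE 0.21, limma adjusted p = 9.57e-07). The other called genes were PtStettler14.03G154000 at -1.93 (SE 0.23, limma adjusted p = 2.45e-07), PtStettler14.01G403100 at -1.53 (SE 0.17, limma adjusted p = 1.08e-07) and PtStettler14.01G204900 at -1.41 (SE 0.1, limma adjusted p = 1.14e-11). PtStettler14.02G200700 stood at -1.17 (SE 0.12, limma adjusted p = 1.05e-08) and PtStettler14.15G109300 at -1.03 (SE 0.13, limma adjusted p = 5.36e-07). PtStettler14.15G109300 fell short of the fold threshold without 14.2 replicate 2 (-0.88), without 14.5 replicate 1, after quantile normalization and on TPM as deposited (-0.87). The smallest differences were those of PtStettler14.17G031000, -0.47 (SE 0.1, limma adjusted p = 0.00133), and PtStettler14.08G172000, -0.47 (SE 0.12, limma adjusted p = 0.00457), both short of the fold threshold.

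Branch 14.1 was set against the same 3 branches, so the comparisons share their libraries of 14.3, 14.4 and 14.5. There 8 of the 13 lower genes were called lower, with a median of -1.16, beside 0.155% of all tested genes. The count was 5 without 14.1 replicate 1 and 8 or 9 without any other single library. Replicate 3 of 14.1 had the fewest fragments of all 45 libraries and 50.6% of its TPM in the genes that varied together; without it 9 were called. One higher gene, PtStettler14.01G365700, was called higher in 14.1, beside 0.13% of all tested genes; it had 2.405, 2.499 and 2.95 scaled TPM in 14.1, against branch means of 0.907, 0.242 and 0.273 in 14.3, 14.4 and 14.5. All 13 lower genes had their lowest branch of tree 14 in 14.1 (6 genes) or 14.2 (7 genes). Over all tested genes, 26.1% were lowest in 14.1 and 15.7% in 14.2.

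A test for any difference among the 5 branches of a tree was also run. In tree 14, 10 of the 13 lower genes (76.9%) were called, and so were 5 of the 94 higher genes (5.32%) and 0.845% of all tested genes. In tree 4 the counts were again 10 of 13 and 5 of 94, beside 2.45% of all tested genes. Of the 80 higher genes that did not enter the test through 13.1, 5 were called in each tree (6.25%), and the remaining 14 reached at most 0.618 scaled TPM in tree 4. Some of the 80 were similarly low there, such as PtStettler14.12G110100 and PtStettler14.05G118300, at no more than 0.686 and 0.426. The median range between the branches of tree 4 was 1.65 log2 units for the lower genes and 0.33 for the higher genes, against 0.28 for all tested genes. The scale used understates changes of weakly expressed genes. Median level in the other 4 branches of tree 13 was 1.91 scaled TPM for the higher genes and 23.1 for the lower genes. For all tested genes it was 7.91. Genes of like level were not compared. How far level accounts for the fewer calls and smaller range of the higher genes was therefore not tested. In tree 4 the lower genes had their lowest branch in 4.1 (6 genes, against 25.4% of all tested genes) or 4.4 (7 genes, against 20.1%). For 12 of the 13 the highest branch was 4.5, against 25.3% of all tested genes. PtStettler14.14G101600, for example, had 17.8, 36.2 and 24.1 scaled TPM in 4.1 and 38.5, 43.7 and 42.9 in 4.4, against 129, 192 and 146 in 4.5. PtStettler14.12G035800 was the only higher gene called in both trees, with branch means of 20.8 to 44.8 in tree 14 and 10.97 to 51.3 in tree 4. All of these values lay below the 82.05 of the lowest library of 13.1.

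**Figure D5:**
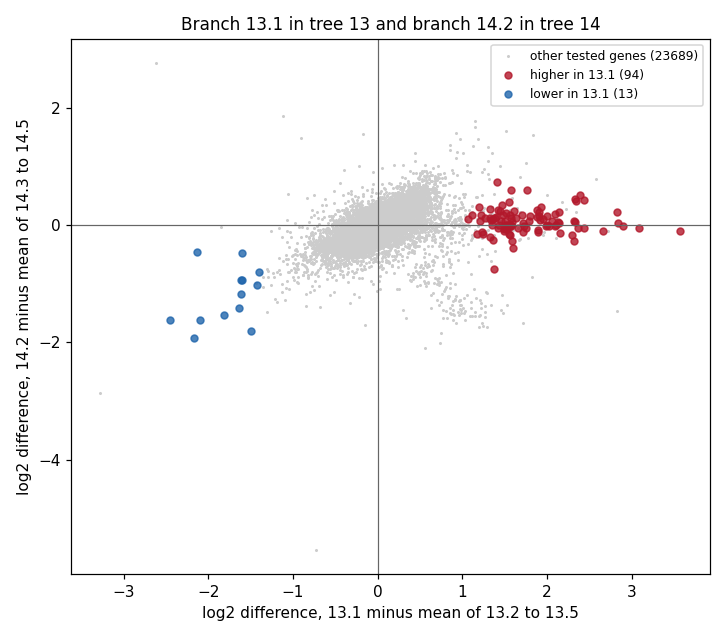
Log2 difference of 14.2 from the mean of 14.3 to 14.5 (vertical axis) against that of 13.1 from the mean of 13.2 to 13.5 (horizontal axis), 1 point per tested gene; red points are the 94 higher and blue points the 13 lower genes, and grey points the other 23689 tested genes. The red points lie along 0 on the vertical axis, with a median of 0.06, and all blue points lie below 0, with a median of -1.17.

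The lower genes also varied together between libraries. Their median pairwise Pearson's r was 0.93 over the 15 libraries of tree 14 and 0.89 over those of tree 4, against 0.20 and 0.10 for the higher genes and 0 for all tested genes. After the branch means were removed it was 0.65 and 0.58 for the lower genes, and 0.08 and 0.11 for the higher genes. These are correlations between genes that share libraries, given as a description. Many of the higher genes were weak in these trees, and 14 stayed at or below 0.716 scaled TPM in tree 14 and 0.618 in tree 4. Such levels rest on a few fragments, and whether this lowered the r of the higher genes was not tested. Across genes, the differences of 13.1 in tree 13 and of 14.2 in tree 14, which share no library, had an r of 0.38 over all tested genes, 0.01 over the 94 higher genes and 0.36 over the 13 lower genes.

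The level of the lower genes in 13.1 was not the low end of the series throughout. In 10 of the 13 the mean of 13.1 was below all 14 other branch means. The rule had already set 13.1 below 4 of these 14, and the share of all tested genes was not counted. In 8 of the 13 every library of 13.1 was below all 42 others, as in 1.34% of all tested genes. The 3 exceptions by branch mean were PtStettler14.17G031000, PtStettler14.08G172000 and PtStettler14.01G138700, for which tree 4 reached down to 1.21, 27.9 and 12.2 scaled TPM. For PtStettler14.15G109300 the trees differed in level, with 16.7, 19.4 and 15.4 in 13.1 and 51.7 as the median of the other 12, against 56.9 to 179 in tree 14 and 178 to 431 in tree 4.

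No gene at 0 in all 12 other libraries reached an average of 5 scaled TPM in 13.1. In the other direction, PtStettler14.07G059900 and PtStettler14.18G051800 were listed at 0 in all 3 libraries of 13.1 and averaged above 5 in the others. Neither was set apart: PtStettler14.07G059900 reached 432 in 1 of the other libraries and PtStettler14.18G051800 reached 287, but the median of the other 12 was 0 in both.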

How the data were processed

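Leaf mRNA of 15 branches was sequenced as paired, strand-specific libraries, 3 per branch. The authors trimmed reads with Trimmomatic 0.36, aligned them to the Stettler genome with HISAT2 2.1.0 and estimated expression with StringTie 1.3.4d. For each library the authors deposited gene-level FPKM and TPM, covering 34700 genes; both are length-normalized, TPM being FPKM rescaled to a fixed sum, and neither is a count. FPKM was used only to recover depth, from the step that 1 fragment gives.

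TPM was divided by median-of-ratios factors over the 25014 genes above 0 in all 45 libraries (0.506 to 1.29). Genes with at least 1 scaled TPM in at least 3 libraries were fitted as log2(scaled TPM + 1) with limma 3.58.1 in R 4.3.3, with 15 branch means, a mean-variance trend, 1 spread shared by all 45 libraries and Benjamini-Hochberg adjustment over all 23796 genes. The study's own differential test ran on counts, which were not used here; its thresholds were kept. A gene was set apart in 13.1 if all 4 contrasts passed with 1 sign. The fit was tested on simulated data. Remaining steps used Python 3.11.15 with numpy 2.4.6 and pandas 2.3.3.

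The branch, the genes, the tests and the lists were chosen with earlier results of these data known. Some genes were named by rule among those whose libraries of 13.1 lay apart from the other 12. These were the 10 higher and 10 lower with the largest smallest-of-4 difference and the 3 of each with the highest mean over tree 13. Without that condition the rule also named the longest run of neighbours and the 2 genes just inside and the 2 just outside the fold threshold. It further named up to 2 genes at 0 on one side. Other genes were named after their values were seen. Alternatives covered the pseudocount, the filter, the scaling, the trend, the thresholds, the choice of libraries and branches, and a block for the replicate number. No 2 of the 45 libraries held identical values. No genome sequence of the Stettler build was used here, so no sequences are shown.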

Additional observations from a re-analysis of the deposited data

Results flagged for a closer look

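Branch means of the named genes were examined for a single branch far from the other 4 of its tree, in 74 groups of 5 branches. In 6 groups the gap to the next branch took more than 0.71 of the whole range. Chance gives about 1 such group in 20 for normally distributed values. Whether that rate holds for means at or near 0, as in several groups here, was not tested. PtStettler14.12G110300 averaged 0.596 scaled TPM in 14.1, with 0.321 in the next branch of tree 14. PtStettler14.02G001400 averaged 1.28 in 14.3, with 0.553 in the next branch, and PtStettler14.04G122600 averaged 0.174 in 14.3, with 0.0770 in the next. PtStettler14.01G099900 averaged 0.0160 in 14.4 and was listed at 0 in the other 4 branches of tree 14. All 4 of these genes are higher in 13.1, and their values in tree 14 are near or below 1 scaled TPM. The value of PtStettler14.01G099900 rests on 1 library of 14.4. PtStettler14.07G059900, at 0 in 13.1, averaged 731 in 14.1, with 208 in the next branch, but each mean rests on 1 library, at 2194 and 623, with the other 2 listed at 0. This gene belongs to the group of 198 that varied together, which took 50.6% of TPM in that library of 14.1. PtStettler14.18G051800, also at 0 in 13.1, averaged 40.7 in 4.1, from 1 library at 122 with the other 2 at 0, and was listed at 0 in the other 4 branches of tree 4.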

How the results depend on the processing

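Of 1984 recomputed values 1944 were kept: gene values on their side of the threshold, and counts within 1.5 times the reported count. Named genes gave 1645 of the values, and many of these genes were chosen for wide separation in 13.1. For these genes, keeping their side in that contrast was likely from the start. Of the 1645 values 1634 were kept, and none was counted as reversed. A change of sign counted as reversed only where the reported or the recomputed value passed the thresholds, and otherwise as kept. Of the 339 counts and ratios 310 were kept. With a pseudocount of 0.1, 29 genes were lower in 13.1, 491 differed from 13.3 and 364 from the mean of the 4 branches; of the genes then set apart, 17 were called in 14.2, 23 in 14.1, 34 among the branches of tree 14 and 32 among those of tree 4. With genes averaging at least 5 scaled TPM only, which tests fewer weak genes, 39 were set apart, 26 of them higher; 59, 156, 146 and 135 differed from 13.2, 13.3, 13.4 and 13.5, and 103 from their mean. With a log2 difference of at least 0.58, 271 were set apart, 195 higher and 76 lower. From the 4 branches 364, 1375, 1016 and 791 differed, and 766 from their mean. Of the 271 genes 59 were called in 14.2, 67 in 14.1, 94 in tree 14 and 101 in tree 4. The shares of all tested genes called in trees 14 and 4 under these changed settings are not given. Whether the members exceed them there was not tested. Counting only the 80 higher genes that reach the level minimum outside 13.1 was a choice made after seeing the data. Of these 80, 0 were called in 14.2, 1 in 14.1, 5 within tree 14 and 5 within tree 4, as with all 94. With the 13 lower genes added the totals were 8, 9, 15 and 15. The 14 higher genes left out were so low in both trees that a call was hardly possible. Leaving them out could therefore hardly change the counts. Some of the 80 were similarly low in both trees, because other branches of tree 13 could meet the level minimum. Against 13.3, 13.4 and 13.5 only, 45 genes were lower. The share of higher genes among those set apart, 87.9% as reported, was 78.5% with the pseudocount of 0.1, 66.7% with the stricter filter, 72.0% with the lower fold threshold and 71.7% without 13.2; other scalings left it between 86.9% and 90.1%.

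Leaving out single libraries gave 100 to 122 genes set apart, 84 to 108 higher and 13 to 17 lower. The pairs gave 149 to 169, 219 to 327, 254 to 286 and 242 to 295 genes for 13.2 to 13.5, and the mean of the 4 gave 218 to 237. In trees 14 and 4 the counts were 7 to 10 for 14.2, 6 to 10 for 14.1, 13 to 17 within tree 14 and 14 to 16 within tree 4. Genes without overlap numbered 2280 to 3630, against 2255 with all libraries; the 3630 came without 13.1 replicate 2, where 2 libraries face 12. The mean of 1 minus r from 13.1 to the other branches was 1.52 times that of the next branch, 1.51 to 1.66 times without single libraries of 13.1, and 1.2 times by mean absolute log2 difference. Replicate numbers did not pair the libraries: same-numbered libraries of different branches of tree 13 had correlations of deviations from -0.366 to 0.381 (median -0.017), and 5 of 15 libraries correlated best with their own number. With the replicate block 106 genes were set apart (93 higher, 13 lower). Leaving out 13.1 replicate 2 took PtStettler14.06G063400, at 0.90 on the log2 scale, below the fold threshold. At this depth levels far below 1 TPM rest on a few fragments, which limits the weakest of the higher genes most.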

Other observations

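A wider set comes from the contrast of 13.1 with the mean of the other 4 branches, which holds 178 higher and 47 lower genes (0.748% and 0.198% of tested genes) and includes all 107 genes set apart. In 14.2 against the mean of 14.3, 14.4 and 14.5, whose means hold no library of tree 13 although the fit's spread, filter and scaling do, 16 of the 47 lower genes were called lower by limma and all 47 differences were below 0, with a median of -0.89 on the log2 scale. Of the 178 higher genes 10 were called higher and none lower in 14.2, 68 differences were below 0 and the median was 0.07. Among all tested genes 0.0925% were called higher and 0.0967% lower in 14.2. Any difference among the branches of tree 14 was called for 24 of the 47 lower and 22 of the 178 higher genes, beside 0.845% of all tested genes, and in tree 4 for 31 and 26 genes, beside 2.45%. The higher and lower genes were not matched in level for these counts.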
